A study of Mus musculus with 14 samples.

Results

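Genes for collagens, laminins, integrins, fibulins, metalloproteases of the ADAM, ADAMTS and MMP families and their TIMP inhibitors were examined for binding of MyoD and MyoG in muscle stem cells (MuSCs). Members were all genes whose symbol matched the family names (Col, Lama, Lamb, Lamc, Itga, Itgb, Adam, Adamts, Mmp, Timp, Fbn, Fbln, Fn1, Tnc and Tnr) and to which at least 1 peak had been assigned. They numbered 42 of the 4384 genes in 12 peak lists, and they held 146 peaks. No fibrillin, fibronectin or tenascin gene was among them.

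The mice were wild-type animals in which a Pax7-CreERT2 driver switched on the mito-Dendra2 allele, a fluorescent mitochondrial label that marks MuSCs and their progeny, after tamoxifen (75 mg/kg daily for 5 days). BaCl2 (50 µL at 1.2%) was injected into a tibialis anterior muscle and saline into the opposite muscle. At 2 days after injury, activated cells (ASCs, CD34-, Dendra2+, DAPI-) were sorted from injured muscle and quiescent cells (QSCs, CD34+, Dendra2+, DAPI-) from uninjured muscle, and ChIP-seq was performed with an antibody to MyoD or to MyoG. Each of the 4 groups (ASC MyoD, ASC MyoG, QSC MyoD, QSC MyoG) had 3 libraries, described by the study as biological replicates. All groups carried both alleles and received tamoxifen, so state differed together with injury and with the CD34 gate. The age of the mice and the number of animals in a library are not given in the sources used here. Nor is it given whether ASC and QSC libraries came from the same mice.

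The extracellular matrix surrounds each muscle fiber and holds the stem cell niche. Laminins and collagen IV build the basement membrane, integrins in the cell membrane bind these proteins, and metalloproteases cut matrix proteins or shed proteins from the cell surface. MyoD and MyoG are basic helix-loop-helix factors of the muscle lineage that bind a short motif called the E-box, CANNTG, in which N is any base.

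A peak is a stretch of genome with more ChIP reads than background, and its score is -10 times the log10 of the caller's p-value, with 50 as the lowest value in the lists. The ASC MyoD lists held 2262 to 2652 peaks, the ASC MyoG lists 605 to 916, the QSC MyoD lists 139 to 174 and the QSC MyoG lists 120 to 167. Peak lists hold no read counts, so the sequencing depth behind these numbers is unknown, and a difference in depth or in antibody recovery cannot be told apart from a difference in binding. Of 12 muscle genes looked up to check the labels, 7 had peaks in at least 2 ASC MyoD libraries and in no QSC MyoD library, among them Myog, Myh3, Chrna1 and Des. Over all coding genes, 6.33% had peaks in at least 2 ASC MyoD libraries. Chrng had a peak in 1 ASC MyoD library, and Chrnb1, Cdh15, Acta1 and Ckm had none. With MyoG, only Mef2a had a peak, in 1 ASC library, so the check says little about the MyoG labels. The lists hold no expression values, so the identity of the sorted cells was not checked with cell type markers.

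The promoter windows of 3 members are shown because a MyoD peak covered or lay near a start site there. Each runs from 250 bases before to 50 after a RefSeq start site (GRCm38.p6), 5′ to 3′ on the gene's strand, with every E-box in capitals. The window at the upstream start of Itgb6 (chr2:60722554-60722853, minus strand) was overlapped by a peak in 2 ASC MyoD libraries, whereas its internal start (chr2:60673644-60673943, minus strand) was overlapped in none. An internal start of Adam19 (chr11:46127654-46127953, plus strand) was overlapped in 1 ASC MyoD library, and its starts near the 5′ end of the gene (chr11:46054252-46054551 and chr11:46055734-46056033, plus strand) in none. The window of Lama5 (chr2:180225810-180226109, minus strand) held no peak, and the centre of the nearest region was 2494 bp from its start site.
Itgb6, upstream start: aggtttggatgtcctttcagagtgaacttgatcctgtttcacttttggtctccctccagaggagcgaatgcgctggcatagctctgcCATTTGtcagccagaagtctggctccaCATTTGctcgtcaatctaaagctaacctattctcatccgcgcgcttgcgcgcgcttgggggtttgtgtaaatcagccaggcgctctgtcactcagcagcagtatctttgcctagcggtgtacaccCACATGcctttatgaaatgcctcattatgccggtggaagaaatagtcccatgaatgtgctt
Itgb6, internal start: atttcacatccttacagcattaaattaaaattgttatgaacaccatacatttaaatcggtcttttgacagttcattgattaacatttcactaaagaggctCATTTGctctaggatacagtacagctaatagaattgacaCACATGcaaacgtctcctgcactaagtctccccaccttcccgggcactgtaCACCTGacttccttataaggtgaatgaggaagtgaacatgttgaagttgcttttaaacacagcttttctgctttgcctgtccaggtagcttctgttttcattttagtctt
Adam19, internal start: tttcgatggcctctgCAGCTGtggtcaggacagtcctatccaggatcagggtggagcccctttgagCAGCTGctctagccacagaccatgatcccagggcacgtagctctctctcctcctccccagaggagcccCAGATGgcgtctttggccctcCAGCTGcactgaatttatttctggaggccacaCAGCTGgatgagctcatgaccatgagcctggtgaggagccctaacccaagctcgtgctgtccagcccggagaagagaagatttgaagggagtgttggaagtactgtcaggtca
Adam19, first start near the 5′ end: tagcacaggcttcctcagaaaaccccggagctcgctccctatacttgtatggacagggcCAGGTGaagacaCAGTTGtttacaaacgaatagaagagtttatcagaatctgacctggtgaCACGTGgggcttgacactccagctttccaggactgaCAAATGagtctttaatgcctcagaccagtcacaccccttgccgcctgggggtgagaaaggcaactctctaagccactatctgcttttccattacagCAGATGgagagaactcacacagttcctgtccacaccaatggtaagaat
Adam19, next start near the 5′ end: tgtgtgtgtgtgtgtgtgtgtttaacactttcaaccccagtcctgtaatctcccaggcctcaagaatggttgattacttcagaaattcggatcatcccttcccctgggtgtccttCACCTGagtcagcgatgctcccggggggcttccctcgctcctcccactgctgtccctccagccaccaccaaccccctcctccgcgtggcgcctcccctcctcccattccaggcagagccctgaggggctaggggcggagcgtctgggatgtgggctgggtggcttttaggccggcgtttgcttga
Lama5: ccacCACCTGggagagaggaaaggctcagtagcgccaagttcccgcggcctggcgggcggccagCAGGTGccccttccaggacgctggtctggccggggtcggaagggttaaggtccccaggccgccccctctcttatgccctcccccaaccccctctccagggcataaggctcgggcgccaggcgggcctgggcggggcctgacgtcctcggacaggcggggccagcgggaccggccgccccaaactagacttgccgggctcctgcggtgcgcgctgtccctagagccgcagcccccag

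The E-boxes of the 2 overlapped windows had different centres. The Itgb6 upstream window held CATTTG at 2 places and CACATG at 1, and neither CAGCTG nor CAGGTG. The Adam19 internal window held CAGCTG at 4 places and CAGATG at 1. Of the Adam19 windows near the 5′ end, which no peak overlapped, the first also held 5 E-boxes, with CAGGTG among them and no CAGCTG, and the next held a single CACCTG, the opposite-strand form of CAGGTG, and the Lama5 window held CACCTG and CAGGTG once each. Over all 32851 windows of the reference table, 16.3% held CAGCTG, 20.2% held CAGGTG on either strand and 72.3% held any CANNTG, a form that includes both of the others. Among the 32 windows of the 27 members in that table, the shares were 25%, 31.2% and 81.2%. Among the 159 windows overlapped by a peak in at least 2 ASC MyoD libraries they were 50.9%, 35.2% and 89.3%. A match marks letters in the window and does not mark a bound site.

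Peaks at matrix and adhesion genes were listed mainly for MyoD in ASCs. The ASC MyoD libraries had peaks at 27, 23 and 26 members (25.3 ± 2.08, mean ± SD, n = 3), and the QSC MyoD libraries at 0, 1 and 1 (0.667 ± 0.577). The groups did not overlap, but 3 libraries against 3 allow no exact permutation p below 0.1, which was the value obtained (two-sided, adjusted p = 0.2 over 4 tests). The ASC MyoD lists held 1808 to 2066 genes in all and the QSC MyoD lists 104 to 145. A difference in member counts therefore cannot be told apart from the difference in list size. As a share of all genes in a list, members made up 1.31%, 1.27% and 1.39% in the ASC MyoD libraries and 0%, 0.962% and 0.699% in the QSC MyoD libraries (exact permutation p = 0.1, adjusted p = 0.2). With MyoG, peaks were at 7, 7 and 2 members in ASCs and at 2, 2 and 1 in QSCs, a difference within the spread of the libraries (exact permutation p = 0.3, adjusted p = 0.4). The MyoG shares of 1.06%, 1.66% and 0.463% in ASCs overlapped those of 1.71%, 1.28% and 0.629% in QSCs (exact permutation p = 0.7). These 4 tests were not planned, since the plan was to describe the counts and shares only.

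**Figure D1:**
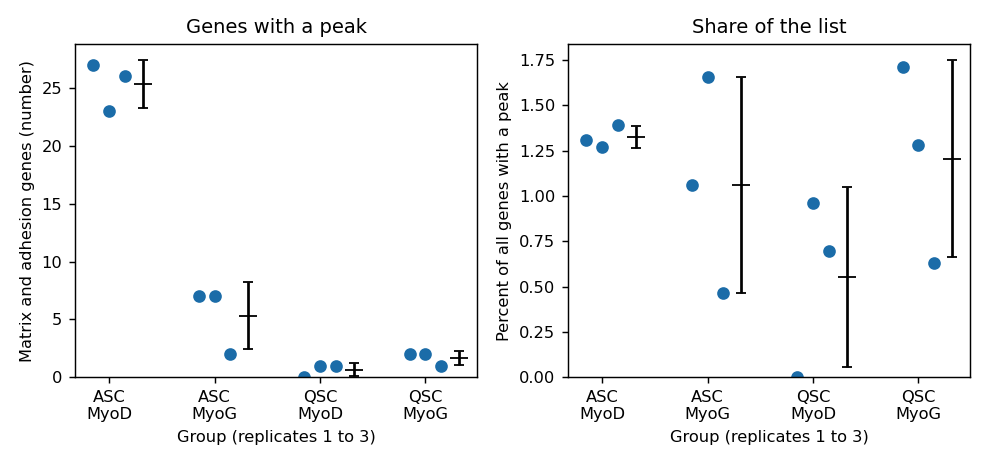
Left, number of matrix and adhesion genes with a peak in each library; right, those genes as a percent of all genes with a peak in the same library (points, replicates 1 to 3; bar, mean ± SD, n = 3). The ASC MyoD libraries lie at 23 to 27 genes and all others at 7 or fewer, while the shares in ASC MyoD of 1.27% to 1.39% fall inside the range of the MyoG libraries.

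Members recurred between ASC MyoD libraries. Of the 33 members with an ASC MyoD peak, 18 had peaks in all 3 libraries (54.5%, against 35.5% of the 2964 genes with such a peak), 7 in 2 and 8 in 1. A gene was called ASC-specific when at least 2 of 3 ASC libraries and none of the 3 QSC libraries of the same antibody held a peak assigned to it. By this rule 24 of the 34 members with any MyoD peak were ASC-specific (70.6%, against 51.9% of all 3223 genes), and 0 were QSC-specific by the converse rule (0.683% of all genes). In an exact permutation test per gene on presence of a peak, 17 members and 1027 genes in all reached the smallest p of 0.1, and after adjustment over the 3223 genes the smallest value was 0.314. No gene reached an unadjusted p of 0.05, which this design cannot give.

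At the level of regions, made by merging peaks that overlapped by at least 1 bp, 33 of the 61 MyoD regions at members were ASC-specific (54.1%, against 44.0% of 4488 regions). Of these 33 regions, 19 had a peak in all 3 libraries (57.6%, against 55.7% of the 1976 ASC-specific regions). Their annotation was intron for 15 (45.5%, against 35.1%), distal intergenic for 10 (30.3%, against 35.6%), promoter for 5 (15.2%, against 22.8%) and exon for 3 (9.09%, against 4.00%). A region with mixed annotations was counted under that of its highest-scoring peak. Promoter is the authors' label, and some regions counted there lay within the RefSeq gene, as given below. The median of the mean scores was 85.9 for the 33 regions, beside 82.3 for all ASC-specific regions. Within each ASC MyoD list the median score of member peaks was 77.8, 81.5 and 81.4, beside 75.1, 72.1 and 68.9 for all peaks.

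RefSeq holds 180 protein-coding genes whose symbols match the same family names. Of these, 42 had a peak in any library (23.3%, against 14.4% of 21900 coding genes), and 25 had peaks in at least 2 ASC MyoD libraries (13.9%, against 6.33%). Members are long genes. The family had a median length of 49.5 kb, beside 17.1 kb for all coding genes, and the 25 genes had a median of 124 kb, beside 65.3 kb for all coding genes with such peaks. With coding genes split into 4 length classes of about equal size, the share in the longest class was 22 of 97 family genes (22.7%) against 832 of 5475 (15.2%). In the class below it was 3 of 39 (7.69%, against 5.30%), and in the 2 shortest classes it was 0 of 11 and 0 of 33 family genes, against 1.52% and 3.33% of coding genes. The part of gene length in these counts was not tested further.

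**Figure D2:**
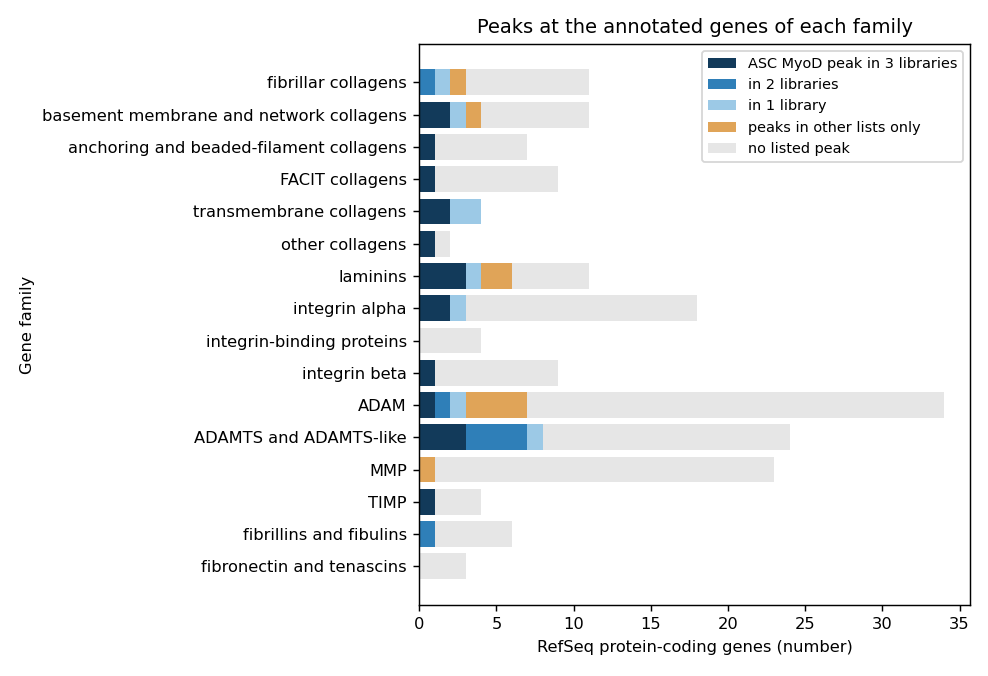
Number of RefSeq protein-coding genes in each family (bar length, axis from 0), coloured by the number of ASC MyoD libraries with a peak, by peaks in other lists only, or by no listed peak. The 4 transmembrane collagens all had an ASC MyoD peak, whereas the 23 MMP genes and the 3 fibronectin and tenascin genes had none.

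The number of genes with any peak is given by family beside the share of 14.4% over all coding genes, and differences between families were not tested. All 4 transmembrane collagen genes, 6 of 11 laminin genes and 8 of 24 ADAMTS and ADAMTS-like genes had an assigned peak in some library. Fewer had peaks in all 3 ASC MyoD libraries, namely 2 transmembrane collagen, 3 laminin and 3 ADAMTS genes, with 4 further ADAMTS genes in 2 libraries. Col13a1 and Col17a1 each had 1 peak in 1 library, with scores of 54.35 and 50.58, near the lowest value of 50. Among integrins, 3 of 18 alpha subunit genes and 1 of 9 beta subunit genes had a peak, which together is 14.8% and close to the share over all coding genes. No peak was assigned to Itgb1, the beta subunit shared by most matrix-binding integrins. Col1a1 and Col1a2, the chains of collagen I, Lamb1 and Lamc1, the chains common to most muscle laminins, Fn1, which encodes fibronectin, and the gelatinases Mmp2 and Mmp9 likewise had no listed peak. Absence from a list of peaks means only that no peak passed the caller's threshold.

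**Figure D3:**
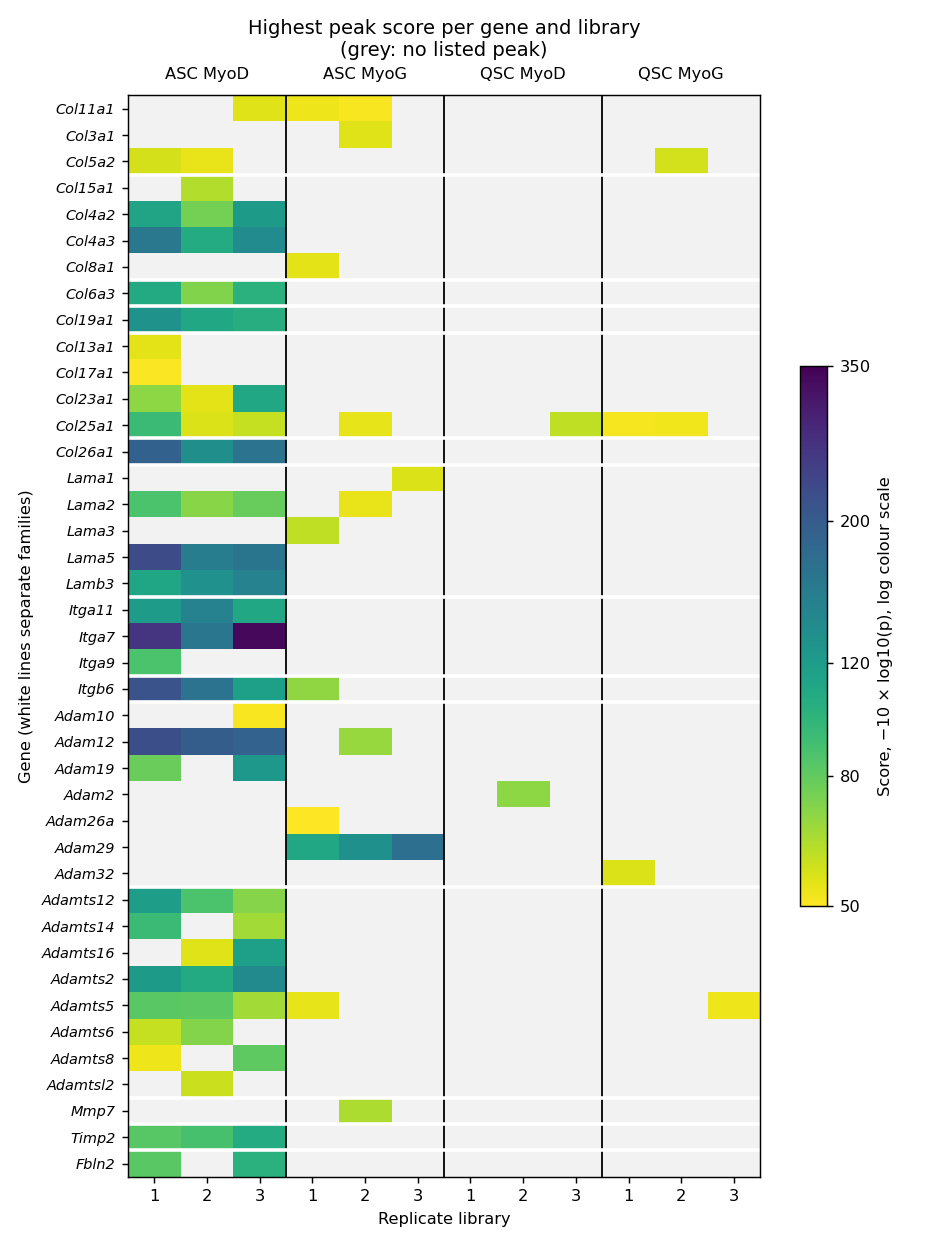
Highest peak score of 41 genes (rows, grouped by family) in each of the 12 libraries (columns), on a log colour scale of -10 times log10 p, with grey for no listed peak. Colour fills the 3 ASC MyoD columns for 18 genes and is scattered elsewhere, except for Adam29, which is filled in all 3 ASC MyoG columns.

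Among integrin genes, Itga7 held the member region with the highest mean score over the 3 ASC MyoD lists, although in the list of replicate 2 regions of Adam12 and Itgb6 scored higher. Itga7 encodes the alpha subunit of the main laminin receptor of muscle fibers. Its region in exon 2 and intron 1 (chr10:128937351-128939097) scored 262, 163 and 335 in ASC MyoD replicates 1, 2 and 3 (253 ± 86.4, n = 3), with no QSC peak. On average 95.8% of the peaks in the same list scored no higher. Itgb6 encodes the beta subunit of an integrin known to activate latent TGF-β. It held more ASC-specific MyoD regions than any other member, 4 of its 5 MyoD regions. The highest, in intron 1 (chr2:60688877-60689489), scored 213, 167 and 116 (165 ± 48.2), and another in intron 1 (chr2:60710037-60711685) scored 135, 142 and 74.1 (117 ± 37.4). Both were lowest in replicate 3, whose list also had the lowest median score of the ASC MyoD lists. The promoter region over the upstream start shown above scored 65.6 and 81.4 in replicates 1 and 3, and a region in exon 10 scored 55.8 and 57.2 in the same libraries. Itga11 encodes the alpha subunit of a collagen receptor. Its region lay 11260 bp outside the gene (chr9:62665581-62666595, distal intergenic) and scored 120, 147 and 109 (126 ± 19.6). The alpha subunit gene Itga9 had a peak in intron 15 in replicate 1 alone, with a score of 87.1.

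Among laminins, the chain genes Lama5, Lamb3 and Lama2 had MyoD peaks in all 3 ASC libraries and in no QSC library. Lama5, an alpha chain of the adult basement membrane, had a region annotated as promoter (1 to 2 kb from a start site, chr2:180227460-180229247) with scores of 222, 154 and 164 (180 ± 36.8), and a region in exon 3 with scores of 67.4 and 77.2 in replicates 1 and 3. The promoter region lay 1556 bp outside Lama5, and the predicted gene Gm52542 was nearer, at 1146 bp. Lamb3, a beta chain best known from epithelial laminin, had a region annotated as intron 3 in some lists and as promoter in others (chr1:193316748-193317709), which scored 111, 130 and 148 (130 ± 18.7). Its centre was 14986 bp from the nearest start site in the RefSeq table. Lama2 encodes the alpha chain of the principal laminin of muscle, whose loss causes congenital muscular dystrophy. Its region in intron 12 (chr10:27293969-27294934) scored 86.9, 70.6 and 78.8 (78.8 ± 8.14), close to the list medians, and a region in intron 1 scored 57.2 and 69.9 in replicates 2 and 3. Lama2 is the longest of these genes, at 635907 bp.

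Collagen genes with a region in all 3 ASC MyoD libraries came from the network, beaded-filament, FACIT, transmembrane and other classes, and none came from the fibrillar class. Col26a1, a collagen with an EMI domain, had the highest of them, annotated as promoter (2 to 3 kb, chr5:136872155-136873120) with scores of 191, 132 and 167 (163 ± 29.3). The Col26a1 region lay within the RefSeq gene, and its distance to a RefSeq start site was not available. Col4a3, a collagen IV chain best known from kidney, had a region annotated as promoter within 1 kb of a start site (chr1:82634138-82635054), which scored 160, 105 and 137 (134 ± 27.5). This region lay within the RefSeq gene. Col4a2, a chain of the common basement membrane collagen IV, had regions in intron 4 (chr8:11382120-11383120) and intron 3 (chr8:11348534-11349259). They scored 112, 66.1 and 122 (99.95 ± 29.7), and 50.2, 74.9 and 93.6 (72.9 ± 21.7). Col4a1, its neighbor and partner chain, had no assigned peak.

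Col19a1, a FACIT collagen of basement membrane zones, had a region in intron 11 (chr1:24471052-24472020) with scores of 130, 110 and 104 (115 ± 13.6) and another ASC-specific region in replicates 1 and 3, with 58.1 and 61.3. The region assigned to Col6a3, a collagen VI chain mutated in inherited myopathies, was distal intergenic and 32146 bp outside the gene (chr1:90733963-90734714). It scored 106, 72.4 and 101 (93.2 ± 18.3). Col23a1, a transmembrane collagen, had a region in intron 2 at the low end of the scale (chr11:51493932-51494890), with 69.7, 54.2 and 52.4 (58.8 ± 9.54), and another in replicates 1 and 3 with 60.0 and 109. Col25a1, a transmembrane collagen needed for motor innervation of muscle, had peaks in all 3 ASC MyoD libraries, but no site was shared by all of them. Its distal region scored 85.6 and 59.3 in replicates 1 and 3, and an intron 32 region 55.4 and 50.4 in replicates 2 and 3. Col25a1 was not called ASC-specific because QSC MyoD replicate 3 held a peak in intron 7 (score 60.2) at another site.

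**Figure D4:**
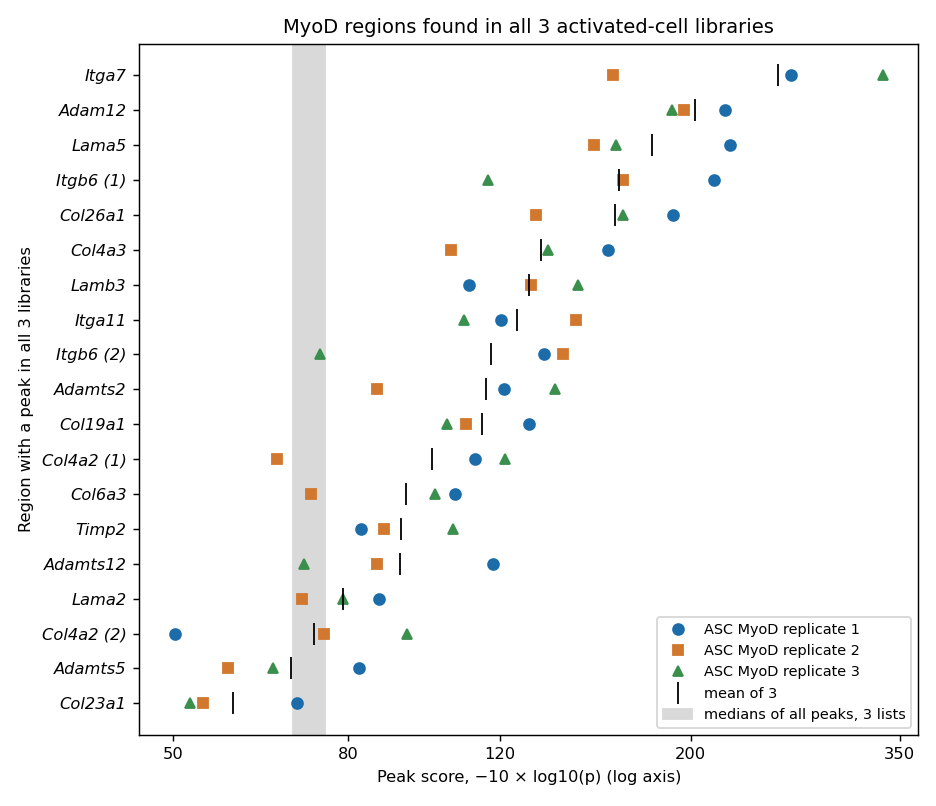
Peak score (log axis, -10 times log10 p) in ASC MyoD replicates 1, 2 and 3 and their mean for the 19 regions at matrix and adhesion genes with a peak in all 3 libraries; the shaded band spans the median score of all peaks in the 3 lists, 68.9 to 75.1. Itga7 lies highest, with a mean of 253 and the widest spread, and Col23a1 lowest, with 58.8.

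Protease genes with a region in all 3 ASC MyoD libraries were led by Adam12. This gene encodes meltrin alpha, a disintegrin metalloprotease linked to myoblast fusion. Its region in intron 1 (chr7:134207543-134208729) scored 220, 197 and 190 (202 ± 15.4), with an SD below that of Itga7. Adamts2, which removes the amino-terminal propeptide of procollagen, had a region in intron 4 (chr11:50746239-50747266) with scores of 121, 86.5 and 139 (116 ± 26.7). A further 3 intronic sites of Adamts2 had a peak in 1 library each. Adamts12 had a region in intron 3 (chr15:11165584-11166602) with scores of 118, 86.5 and 71.0 (91.8 ± 23.9). Adamts5, an aggrecan- and versican-cleaving enzyme, had a region in exon 2 (chr16:85887307-85888361) with 82.4, 58.0 and 65.5 (68.6 ± 12.5). Timp2, an inhibitor of matrix metalloproteases, had a distal region 9445 bp outside the gene (chr11:118364856-118365861) with 82.7, 88.0 and 106 (92.2 ± 12.2).

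In 7 further members, peaks were in 2 ASC MyoD libraries. Overlapping peaks were found for Fbln2, a fibulin of elastic fibers and basement membranes (82.3 and 101, 12432 bp outside the gene), Adamts16 (54.8 and 117, 42200 bp outside), Adamts14 (61.0 and 65.2, 4168 bp outside), Adamts8 (52.6 and 80.8, 485 bp outside), Adamts6 (59.4 and 71.9, 2740 bp outside) and Col5a2, a fibrillar collagen chain (56.9 and 53.3, 84176 bp outside). All 6 regions were distal intergenic. Adam19, or meltrin beta, had peaks in 2 libraries at different sites, intron 3 in replicate 3 (124) and the internal start shown above in replicate 1 (77.8). It was therefore ASC-specific as a gene without an ASC-specific region, which leaves 23 genes supported by overlapping peaks. The 8 members with a peak in 1 ASC MyoD library, among them Adam10, Adamtsl2, Col13a1, Col15a1 and Itga9, had scores of 50.6 to 87.1.

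Distal regions carried several of these calls. Of the 10 distal intergenic ASC-specific regions, 5 had the assigned member as the nearest RefSeq gene (Adamts14, Adamts6, Adamts8, Fbln2 and Timp2). The other 5, assigned to Adamts16, Col25a1, Col5a2, Col6a3 and Itga11, lay closer to a predicted gene of the Gm series. For Itga11 the distances were nearly equal, 11236 bp to the predicted gene and 11260 bp to Itga11. With distal intergenic peaks left out, 15 members remained ASC-specific for MyoD (62.5% of the 24), beside 1107 of the 1674 genes called over all (66.1%).

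With MyoG, 15 members had a peak in any library and 2 were ASC-specific, Adam29 and Col11a1 (13.3%, against 11.7% of 1541 genes), with 0 QSC-specific (0.260%). In the exact permutation test per gene, Adam29 was the only member at the smallest p of 0.1, with an adjusted p of 1. Of 25 MyoG regions at members, 4 were ASC-specific (16%, against 9.42% of 2198 regions), and all 4 were assigned to Adam29. These 4 regions had peaks in all 3 ASC MyoG libraries. The highest (chr8:55514194-55515258) scored 103, 97.3 and 172 (124 ± 41.7, n = 3), and the most even (chr8:55498307-55499438) scored 110, 103 and 95.1 (102 ± 7.32). Adam29 is a member of the ADAM family best known from testis.

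The Adam29 regions lay far from the gene and in a crowded interval. They were 350647 to 371474 bp outside the RefSeq gene, and the nearest annotated genes were the predicted genes Gm51598, Gm51599 and Gm20586. The 1-Mb interval holding them contained 16 ASC MyoG peaks over the 3 libraries, a number reached by 16 of 953 such intervals, whose median was 1. The QSC MyoD lists had 4, 5 and 3 peaks in the same interval, none assigned to Adam29, and the ASC MyoD and QSC MyoG lists had 0. With 1-Mb intervals of at least 10 ASC MyoG peaks left out, an alternative chosen after seeing the data, the Adam29 interval was removed and Col11a1 was the only member still called.

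Col11a1, a fibrillar collagen chain, had MyoG peaks in ASC replicates 1 and 2 (52.6 and 51.0) that did not overlap, 139480 and 257747 bp outside the gene. A further 11 members had a MyoG peak in 1 ASC library, and Mmp7, the only MMP gene with any peak, was among them (63.6 in replicate 2). None of the 33 ASC-specific MyoD regions at members overlapped a MyoG peak, beside 3.95% of all 1976 such regions, and none of the 25 MyoG regions at members overlapped a MyoD peak, beside 5.82% of all 2198. With background shares this low, nothing is read from the absence of overlap. In ASCs, 6 members had peaks of both antibodies, separated by 4790 bp at Itgb6, 6316 bp at Adam12 and up to 250797 bp at Col11a1.

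In QSCs, 7 peaks were assigned to members, and 4 of them scored above the middle of their own list. With MyoD, Adam2 had a peak in intron 7 in replicate 2 (69.6) and Col25a1 the intron 7 peak of replicate 3, and replicate 1 had none. With MyoG, Col25a1 had peaks in replicates 1 and 2 (51.5 and 52.3) at sites that did not overlap, Adam32 had a peak in replicate 1 (55.4), Col5a2 in replicate 2 (57.3) and Adamts5 in replicate 3 (52.6). No member region was found in more than 1 QSC library of an antibody.

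Genes that work with these families were listed separately. Their counts stand beside the 6.33% of all coding genes with peaks in at least 2 ASC MyoD libraries, a looser rule than ASC-specific, and no list was tested against it. Among 18 cell surface receptors and associated proteins other than integrins, 5 were ASC-specific for MyoD, namely Cd44, the hyaluronan receptor, Dag1, which encodes dystroglycan, Ddr2, Gpc1 and Sdc1. The Cd44 region scored 212 ± 39.8 over the 3 libraries and the Gpc1 region 182 ± 39.2. All called regions of Cd44, Gpc1, Dag1 and Sdc1 were distal intergenic, and that of Ddr2 was in an intron. Distances from the distal regions to these and other genes are not given here, so the assignments are uncertain. Of 23 adaptor and signaling proteins of integrin adhesions, 6 were ASC-specific (Bcar1, Lims1, Pxn, Tln2, Tns3 and Zyx), with a region at Bcar1 at 208 ± 23.3. The count was 5 of 39 symbols for proteoglycan, latent TGF-β binding and matricellular genes (Ltbp1, Ltbp2, Ltbp4, Matn2 and Thbs4). It was 2 of 21 symbols for collagen-processing genes (P3h2 and P4ha2, prolyl hydroxylases) and 1 of 14 for other proteases and inhibitors (Htra3). The Thbs4 and Htra3 regions were also distal intergenic. A few genes in the lists of 39 and 21 stand under both an old and a new symbol, so these lists hold fewer genes than symbols.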

How the data were processed

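For mapping and peak calling, the submitters' processing notes name BWA 0.7.5, MACS, deepTools 3.5.0 and mm10 without giving each role. The MACS version and any use of the input libraries are not given in the sources used here. The deposited lists hold, for each library separately, peak start and end, the authors' gene and annotation, and a score of -10 times log10 of the peak's p-value. Reads were not analysed here, nor were the 2 input libraries among the 14 samples. Because scores also follow sequencing depth, the scores of member peaks were set beside all peaks of the same list. Means, SDs and orderings of scores over libraries mix the scale of each list with the region, and only describe the calls.

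Groups came from sample titles. Genes were called from peaks assigned to a symbol at any distance, and regions from peaks overlapping by at least 1 bp. Members, lists and tests were chosen with earlier results of these data known. Named with values were members with a region in all 3 ASC MyoD libraries, with a QSC peak, with MyoG peaks in 2 libraries of a state, or with the most called regions, and others in less detail. All 42 members and 4099 of 4384 genes matched RefSeq GRCm38.p6 symbols, and 27 members had a promoter window. P-values measure only the spread between libraries. The exact permutation tests (20 relabelings) were two-sided, with Benjamini-Hochberg adjustment. The values of 1 member are not reported here. The calling code was tested on simulated peaks made to meet or fail the rules, which checks the code and not the calls in these data. Alternatives were a score of at least 80, other overlap and library rules, omission of distal peaks or of libraries, and a replicate block. Python 3.11.15, pandas 2.3.3, NumPy 2.4.6, SciPy 1.17.1 and matplotlib 3.10.9 were used.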

Additional observations from a re-analysis of the deposited data

How the results depend on the processing

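The 24 ASC-specific members with MyoD became 15 without distal intergenic peaks (the 9 lost were Adamts6, Adamts8, Adamts14, Adamts16, Col5a2, Col6a3, Fbln2, Itga11 and Timp2), 16 at a score of at least 80 and 17 when all 3 libraries were required. Omission of a library gave 18 to 21. The 33 MyoD regions became 16 at a score of at least 80, 19 with all 3 libraries and 59 with at least 1 library, and 21 to 28 with a library left out. Regions were fewest without ASC MyoD replicate 3 (21) and members fewest without ASC MyoD replicate 1 (18). The 2 ASC-specific members with MyoG became 1 at a score of at least 80 or with all 3 libraries, 11 with at least 1 library, 0 without distal peaks, and 1 to 2 with a library left out, since Col11a1 needed both ASC MyoG replicates 1 and 2. With at least 1 library, 1 member was QSC-specific for MyoD and 2 for MyoG. ASC MyoD libraries held 25.3 members on average, 17 at a score of at least 80 and 19 without distal peaks. In 2 alternatives chosen after seeing the data, requiring overlapping peaks left 23 members with MyoD and 1 with MyoG (Adam29), and omission of 1-Mb intervals with at least 10 ASC MyoG peaks left 1 with MyoG (Col11a1), so neither gene was kept by both. With a replicate block (an ASC peak and none in the same-numbered QSC library, for at least 2 numbers) there were 25 members with MyoD, 2 with MyoG and 33 regions. Same-numbered ASC and QSC libraries had correlations of 0.00158 to 0.0249 of their deviations from group means. Such values cannot show whether mice were shared, since the QSC lists hold few genes. Libraries were treated as unpaired in all tests, and pairing by animal remains unknown. The cause of each shift beyond the change of rule was not tested. Merging peaks within a list, a 500 bp gap, a 50% overlap and omission of unplaced sequences changed no member count.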
